A study of Mus musculus with 24 samples.

Results

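Aminoacyl-tRNA synthetases join each amino acid to its transfer RNA, the step that fixes which amino acid a codon is read as. The set described here held 36 genes of the 53465 listed, found by an exact match of the gene symbol to a list written by name. Of these, 20 encode the enzymes of the cytosol and 16, whose symbols end in the suffix for the mitochondrial enzyme, encode those of the mitochondrial matrix. Both classes are made from nuclear genes, and the mitochondrial enzymes are imported to serve translation of the few proteins encoded by mitochondrial DNA. Some enzymes serve both compartments, as glycyl-tRNA synthetase (Gars) and lysyl-tRNA synthetase (Kars) do, so that the class of these genes follows the list and not a strict division of labour. Several cytosolic enzymes sit with the scaffold proteins AIMP1, AIMP2 and EEF1E1 in a multi-synthetase complex, and many cytosolic synthetase genes are known targets of ATF4, the transcription factor of the amino acid response.

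The samples were endothelial cells, the cells that line the brain's vessels, sorted by CD31 from single C57BL/6J mice kept in a 12h:12h light-dark cycle with free access to food. Control mice were Bmal1fl/fl, with both copies of the clock gene Bmal1 (listed as Arntl) floxed and no Cre, and mutant mice were Bmal1fl/fl; Tie2cre, which carry the same floxed alleles and express Cre from the Tie2 promoter, active in endothelium and in part of the blood lineage. For each genotype 2 mice were taken at each of zeitgeber times ZT2, ZT6, ZT10, ZT14, ZT18 and ZT22, where ZT0 is lights on, which made 12 control and 12 mutant libraries of 1 mouse each. The design asks whether a transcript varies over the day and whether that or its level depends on Bmal1 in the endothelium. Male and female mice were used in the study, and their ages were not given in the sources used here.

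The deposited values were normalised reads per gene, and the libraries summed to between 6136404 and 6648311 of them. Of the 53465 genes, 15493 passed the filter of at least 5 reads in 6 or more control or 6 or more mutant mice, and all 36 synthetase genes did. The 10 brain endothelial markers summed to between 84930 and 132900 reads, so that endothelial transcripts were present in all libraries. The 8 libraries of ZT6 and ZT18 carried consecutive library numbers and stood apart from the other 16. Their summed endothelial markers lay between 126600 and 132900 reads, against 84930 to 117200 in the others. Their 8 microglial and leukocyte markers summed to between 1116 and 1863 reads, against 10090 to 27320. Astrocyte, oligodendrocyte and neuronal markers were also lower in them without overlap, and the share of mitochondrially encoded reads was 2.68% to 3.90%, against 5.78% to 17.4%. These 2 time points and that series of library numbers cannot be told apart, and in bulk samples fewer cells of a type cannot be told from less RNA per cell. Whole-gene reads of Arntl ranged from 1 to 468 in controls and from 81 to 354 in mutants, which does not test the deletion of its floxed part. The clock genes showed that time of day and genotype could be read: 7 of 12 had a 24-h rhythm over both genotypes and 6 of 12 differed between genotypes at an adjusted p under 0.05 (edgeR).

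The amino acid response element and the E-box, the site bound by BMAL1 with CLOCK, were looked for in promoter sequences because they are the sites through which ATF4 and the clock are known to act. RefSeq promoters of GRCm38.p6, running from 250 bases before to 50 bases after the start, were found for 27 of the 36 genes, as 28 promoters. The other 9, Cars, Hars, Lars, Nars, Rars, Vars, Wars, Hars2 and Pars2, were not searched. The letters TGATGNAA, on either strand, occurred in a promoter of 5 of the 27 genes (18.5%), against 4.51% of the 27025 genes with a promoter of the same length and 3.97% of their 32851 promoters. All 5 were cytosolic, among them Gars, Iars, Tars and Yars. The letters CACGTG, which read the same on both strands, also occurred in 5 genes (18.5%), against 8.09% of all genes and 7.15% of all promoters. Among them were Ears2, Farsb, Iars and Tars, so that Iars and Tars held both motifs. The windows below lie upstream of the start, are written on the strand of the gene and show why these promoters were counted. In the first 2 the capitals mark the amino acid response element, which reads as the reverse complement of the letters above, and in the last 2 they mark the E-box.
Gars, chr6:55037960-55037989, + strand: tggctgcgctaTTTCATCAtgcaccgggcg
Tars, chr15:11399659-11399684, - strand: caggagtcccgTTGCATCAgctggtt
Farsb, chr1:78488919-78488948, - strand: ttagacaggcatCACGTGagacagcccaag
Iars, chr13:49682049-49682078, + strand: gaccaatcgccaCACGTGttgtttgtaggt
The elements lay 30 bases (Gars) and 15 bases (Tars) upstream of the start, and the E-boxes 39 bases (Farsb) and 69 bases (Iars) upstream. A match describes letters in a window and not binding of a factor.

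Levels of the 2 classes were compared per kilobase of exon, the total length covered by a gene's annotated exons, since genes differ in length. This length merges the exons of all annotated transcripts of a gene and can exceed the length of a single transcript. Ranks and ratios per kb between genes therefore depend on the annotation. The cytosolic genes summed to 1365 ± 115 normalised reads per kb in controls (SD, n = 12) and to 1338 ± 103 in mutants (n = 12). The mitochondrial genes summed to 225 ± 21.1 in controls and 223 ± 25.5 in mutants. The ratio of the 2 sums was 6.09 ± 0.60 in controls and 6.09 ± 0.94 in mutants, and in single mice it ran from 4.69 to 7.73. The cytosolic sum was thus above the mitochondrial one in each of the 24 mice, and the ranges of the genotypes overlapped for both sums. The controls of ZT14 had the lowest cytosolic sums of the 12 controls, at 1233 and 1150, while those of ZT22 were at 1240 and 1486 and the other 8 between 1299 and 1485. The mutants of ZT14 were at 1286 and 1222, within the range of the other mutants (1175 to 1479). Their library numbers belonged to another series than those of the ZT14 controls, so that genotype and series cannot be told apart at ZT14. Of the 20 cytosolic genes, 12 (60.0%) had their lowest control mean at ZT14, as did 5 of 16 mitochondrial genes (31.2%) and 28.5% of all genes tested. In mutants this held for 4 of 20, 1 of 16 (6.25%) and 17.0%. These counts were made after the values were seen, rest on 2 mice per time point and were not tested.

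**Figure D1:**
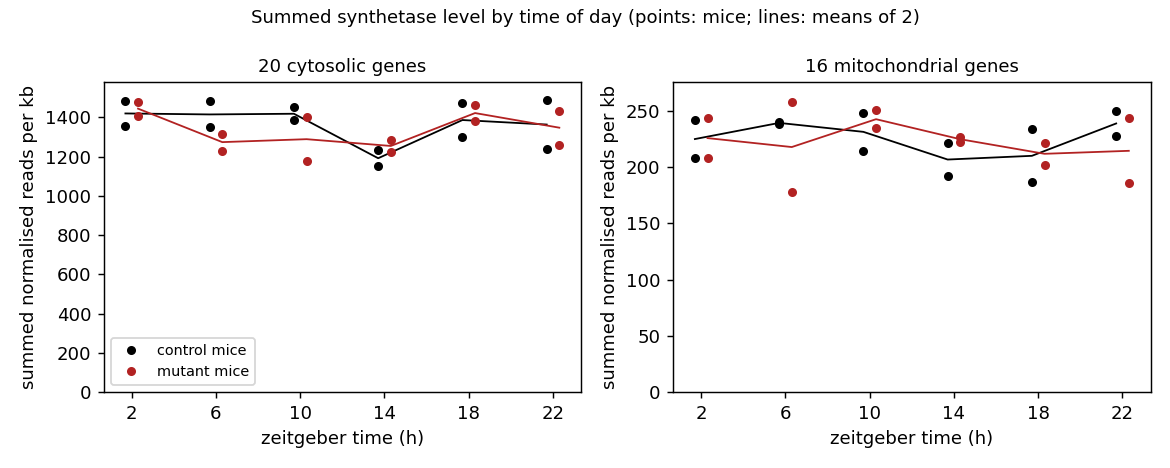
Summed level of the 20 cytosolic and the 16 mitochondrial synthetase genes, in normalised reads per kb of exon, in each mouse by zeitgeber time (h); black points are control mice, red points mutant mice, and lines join the means of 2 mice. The cytosolic sums lie between 1150 and 1486 and the mitochondrial ones between 178 and 258 over the 24 mice.

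**Figure D2:**
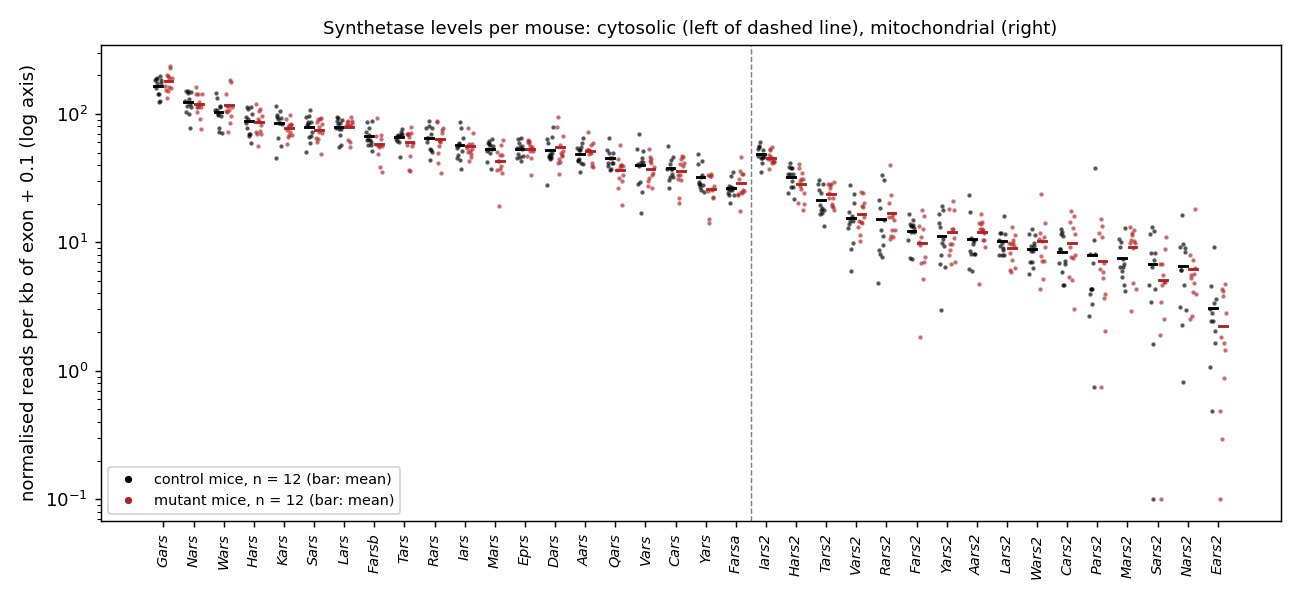
Level of each synthetase gene in each mouse, as normalised reads per kb of exon plus 0.1 on a log axis, with genes ordered within each class by the control mean; black points are control mice, red points mutant mice, and bars their means. Gars stands highest at a control mean of 165 reads per kb, and Ears2 lowest at 2.96.

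Gars, the glycyl enzyme, stood highest per kb of annotated exon, at 165 ± 25.6 reads per kb in controls and 180 ± 31.9 in mutants. Nars, the asparaginyl enzyme, followed at 123 ± 23.3 and 120 ± 24.5, and Wars, the tryptophanyl enzyme, at 103 ± 22.5 and 118 ± 33.4 reads per kb. The ranges of Nars and Wars overlapped between mice. In normalised reads Eprs was the highest, at 962 ± 130 in controls against 516 ± 79.9 for Gars. Its annotated exons cover 18102 bases, against 3119 for Gars. At the low end of the cytosolic class, Farsa, a subunit of the phenylalanyl enzyme, lay at 26.3 ± 4.06 reads per kb in controls, Yars, the tyrosyl enzyme, at 32.4 ± 7.70, and Cars, the cysteinyl enzyme, at 37.6 ± 8.12. Farsb, the other subunit of the same phenylalanyl enzyme, was at 67.3 ± 11.7 reads per kb in controls. Before division by exon length the control means were closer, at 120 normalised reads for Farsa and 176 for Farsb. The exon lengths were 4538 bases for Farsa and 2620 for Farsb, so that the gap per kb depends on them.

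In the mitochondrial class Iars2, the isoleucyl enzyme, was highest, at 48.7 ± 7.03 reads per kb in controls, ahead of Hars2, the histidyl enzyme, at 32.2 ± 6.31, and Tars2, the threonyl enzyme, at 21.4 ± 5.70. The lowest were Ears2, the glutamyl enzyme, at 2.96 ± 2.24 reads per kb, Nars2, the asparaginyl enzyme, at 6.47 ± 4.31, and Sars2, the seryl enzyme, at 6.67 ± 4.15. In normalised reads Ears2 ran from 2 to 47 in controls (median 13.0) and from 0 to 24 in mutants (median 8.5). Sars2 was at 0 in at least 1 mouse of each genotype, which at this depth allows up to 3 reads (counting error only). Single values of these genes therefore carry little precision. Of the exon bases of Iars2, 2148 also belong to Rab3gap2 and a second gene, both on the opposite strand. Of those of Aars, 1403 are shared with Exosc6 on the same strand and with a second gene on the opposite strand. The libraries were stranded, but whether the counting used strand was not given in the sources used here.

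For 16 amino acids both classes were in the set, in 13 of them as genes of the same symbol apart from the suffix, and each pair was compared within the mouse as a log2 ratio of reads per kb. In 12 of the 13 same-symbol pairs the cytosolic gene was higher in 24 of 24 mice. The widest gap of these pairs was that of asparagine, where Nars exceeded Nars2 by 4.57 ± 1.27 (log2, SD, n = 12) in controls and 4.46 ± 0.91 in mutants. Sars exceeded Sars2 by 4.05 ± 1.70 and Wars exceeded Wars2 by 3.54 ± 0.55 in controls. In controls the ratio was 2.96 ± 0.43 for Lars over Lars2, 2.91 ± 0.54 for Mars over Mars2, 2.30 ± 0.49 for Aars over Aars2, 2.30 ± 0.87 for Rars over Rars2 and 2.22 ± 0.63 for Cars over Cars2. It was 1.65 ± 0.45 for Tars over Tars2, 1.65 ± 0.62 for Yars over Yars2, 1.44 ± 0.38 for Hars over Hars2 and 1.40 ± 0.36 for Vars over Vars2. In mutants the lowest of the 12 was Yars over Yars2, at 1.15 ± 0.71. The exception was isoleucine: Iars was above Iars2 in 15 of 24 mice, with a log2 ratio of 0.20 ± 0.49 in controls and 0.28 ± 0.39 in mutants, within the spread between mice. The other amino acids pair genes of different symbols, and there too the cytosolic gene was higher in 24 of 24 mice. Eprs, a single gene for the glutamyl and prolyl enzymes, exceeded Ears2 by 4.43 ± 1.15 in controls and 5.24 ± 1.76 in mutants, and Pars2 by 3.32 ± 1.42 and 3.22 ± 1.25. Over Fars2, the mitochondrial phenylalanyl enzyme, the ratio in controls was 1.12 ± 0.47 for Farsa and 2.47 ± 0.44 for Farsb.

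The spread between mice differed by class along with the level. The coefficient of variation among the 12 controls had a median of 19.8% over the cytosolic genes (11.3% to 35.3%) and of 38.1% over the mitochondrial genes (14.4% to 126%). Genes within the same range of levels had medians of 23.0% (5719 genes) and 39.2% (10193 genes). In mutants the medians were 22.7% over the cytosolic and 43.3% over the mitochondrial genes, against 21.3% and 36.6% in genes of the same ranges. Tars varied least in controls, with normalised reads between 272 and 446, and Pars2, the mitochondrial prolyl enzyme, varied most, between 2 and 118.

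The level of the synthetase genes in mutants against controls was tested with edgeR, with the time point as a factor. None of the 36 differed at an adjusted p under 0.05, a threshold that 0.271% of all 15493 genes passed (42 genes, 25 without mutant ZT6 mouse 2 and 68 without mutant ZT6 mouse 1), and DESeq2 also called none of them. At an unadjusted p under 0.05 edgeR listed 3 of 36, all cytosolic and lower in mutants, against 6.95% of all genes in either direction. The median log2 fold change was -0.05 over the cytosolic genes, with 15 of 20 below 0, and 0.11 over the mitochondrial genes, with 7 of 16 below 0. Over all genes tested it was 0.00, with 49.4% below 0. The 95% intervals of the cytosolic genes lay between -0.63 and 0.40 (log2), whereas those of the mitochondrial genes reached from -2.10 (Ears2) to 1.28 (Pars2).

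**Figure D3:**
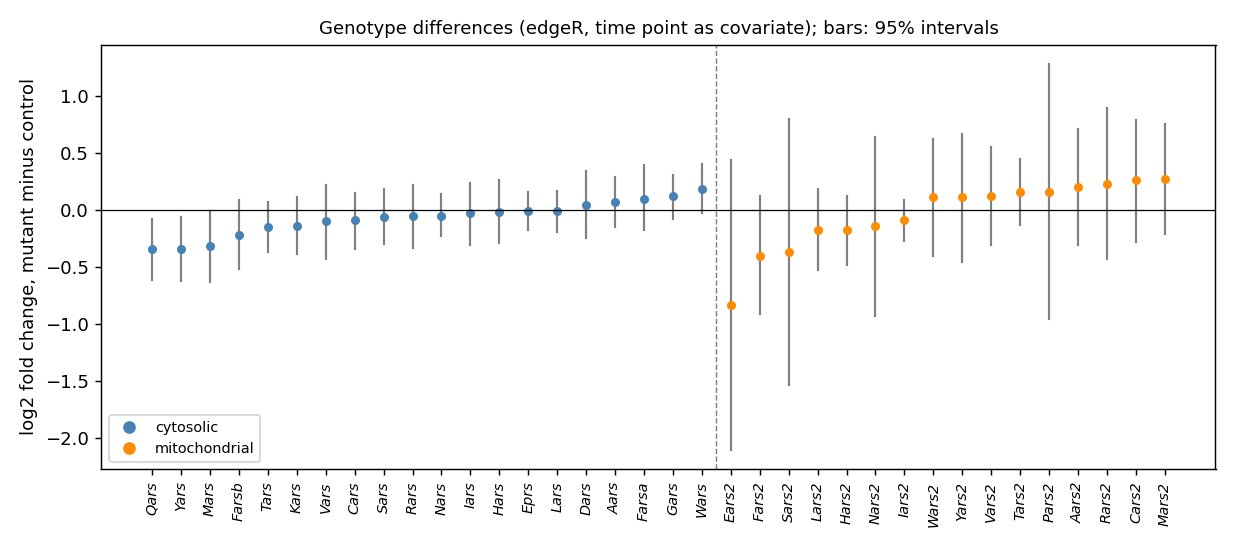
Log2 fold change of each synthetase gene, mutant minus control (edgeR, time point as a factor, 24 mice), with its 95% interval as a grey bar; blue points are cytosolic genes and orange points mitochondrial ones, ordered within each class. The intervals of Qars, Yars and Mars end below 0, with adjusted p-values between 0.520 and 0.696, and that of Ears2 is the widest.

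Qars, the glutaminyl enzyme, ranged from 238 to 428 reads in controls (median 285) and from 127 to 377 in mutants (median 245.5). The groups overlapped, although the lowest values were all from mutants: 127 and 197 at ZT18 and 174 and 209 at ZT6. Its log2 fold change was -0.34 (SE 0.13, edgeR adjusted p = 0.520).

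Yars ranged from 147 to 289 reads in controls (median 171.5) and from 83 to 201 in mutants (median 153). Its lowest values, 90 and 83, were those of the 2 mutants at ZT6, where the controls had 167 and 174. Its log2 fold change was -0.34 (SE 0.14, edgeR adjusted p = 0.554). Without the ZT6 and ZT18 libraries the log2 fold change was -0.12 for Qars (edgeR adjusted p = 0.975) and -0.12 for Yars (edgeR adjusted p = 0.979), so that the size of both differences depended on those time points. With the i5 index, a library barcode, as a factor it was -0.53 for Qars (edgeR adjusted p = 0.322). At ZT2 and ZT10 controls and mutants carried different indices, so that index and genotype cannot be told apart there. None of the 36 genes was called without those libraries.

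Mars, the methionyl enzyme, ranged from 128 to 217 reads in controls (median 188) and from 65 to 215 in mutants (median 147). The lowest value, 65, was a mutant at ZT10, and the groups otherwise overlapped widely. Its log2 fold change was -0.32 (SE 0.15, edgeR adjusted p = 0.696), and without those libraries it was -0.35 (edgeR adjusted p = 0.899). Of its exon bases, 68 overlap Ddit3 on the opposite strand. Gars, the highest gene per kb of exon, had a log2 fold change of 0.12 (95% interval -0.08 to 0.31) and Wars one of 0.18 (-0.03 to 0.40).

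Daily rhythms were tested within each genotype with meta2d, which combines the JTK_CYCLE and Lomb-Scargle methods, at the q threshold of 0.6 that the study used. In controls no synthetase gene passed, against 0.31% of all genes, and in mutants none passed, against 0.0387%. These shares rest on single mice: the 48 genes called in controls became 0 without either control of ZT2 and 82 without control ZT18 mouse 2, and the 6 called in mutants ran from 0 to 24 with each mutant left out. Values rescaled between libraries by TMM gave 65 in controls and 24 in mutants. At an unadjusted p under 0.05 meta2d listed 1 of 36 in controls, against 2.43% of all genes, and none in mutants, against 2.27%. That gene was Cars2, the mitochondrial cysteinyl enzyme (q = 1.0). At ZT2 its control reads were 49 and 63, with 64 and 83 for the ZT6 mice, then 92 and 86 for ZT10, then 42 and 80 for ZT14, with 33 and 33 for ZT18 and finally 48 and 51 for ZT22. The controls were thus highest at ZT10 and lowest at ZT18, while the 12 mutants ran from 21 to 126, with both extremes beyond those of the controls.

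With both genotypes fitted together by a 24-h cosine in edgeR, which has more mice per test, none of the 36 genes was rhythmic at an adjusted p under 0.05, against 0.503% of all genes. None was called with DESeq2 or without the ZT6 and ZT18 libraries either. At an unadjusted p under 0.05 there were 3 of 36, against 5.18% of all genes. The amplitude, the distance from the mean to the peak of the fitted cosine, had a median of 0.11 (log2) over the cytosolic genes, 0.18 over the mitochondrial genes and 0.18 over all genes. Genes within the same range of levels had medians of 0.11 for the cytosolic range and 0.19 for the mitochondrial range. The upper 95% limits of the amplitude ran from 0.25 to 0.53 in the cytosolic class, where Dars had the highest, and from 0.26 (Iars2) to 1.69 (Ears2) in the mitochondrial class.

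**Figure D4:**
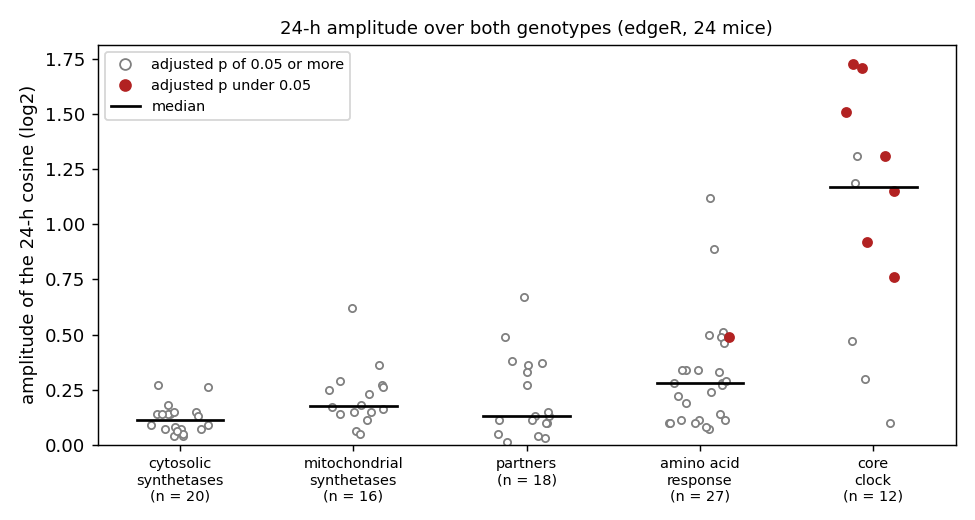
Amplitude (log2) of the 24-h cosine fitted over all 24 mice by edgeR for the synthetase classes, for genes of tRNA charging and translation that work beside them, for amino acid response genes and for core clock genes that passed the filter; each point is a gene, red points have an adjusted p under 0.05 and bars are medians. The medians are 0.11 for cytosolic and 0.18 for mitochondrial synthetases and 1.17 for the clock genes, and no synthetase point is red.

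Dars, the aspartyl enzyme, had an amplitude of 0.27 with a peak at ZT23.9 (edgeR adjusted p = 0.866). Its reads in mutants were 344 and 412 at ZT2 and between 148 and 293 at the other times. In controls they were 278 and 121 at ZT2 and 287 and 345 at ZT22, so that the 2 control mice at ZT2 were far apart.

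Cars had an amplitude of 0.26 with a peak at ZT18.4 (edgeR adjusted p = 0.866). The ZT6 mice were low in both genotypes, at 173 and 199 reads in controls and 132 and 145 in mutants, against 202 to 371 in the 16 mice of ZT2, ZT10, ZT14 and ZT22. Without the ZT6 and ZT18 libraries the amplitude of Cars was 0.13 (edgeR adjusted p = 1.0), whereas that of Dars was 0.27 (edgeR adjusted p = 0.850). Hars2 had an amplitude of 0.27 with a peak at ZT9.37 (edgeR adjusted p = 0.906). Its ZT6 controls read 166 and 178 and its ZT22 controls 114 and 93. It shares 195 exon bases with Hars on the opposite strand.

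**Figure D5:**
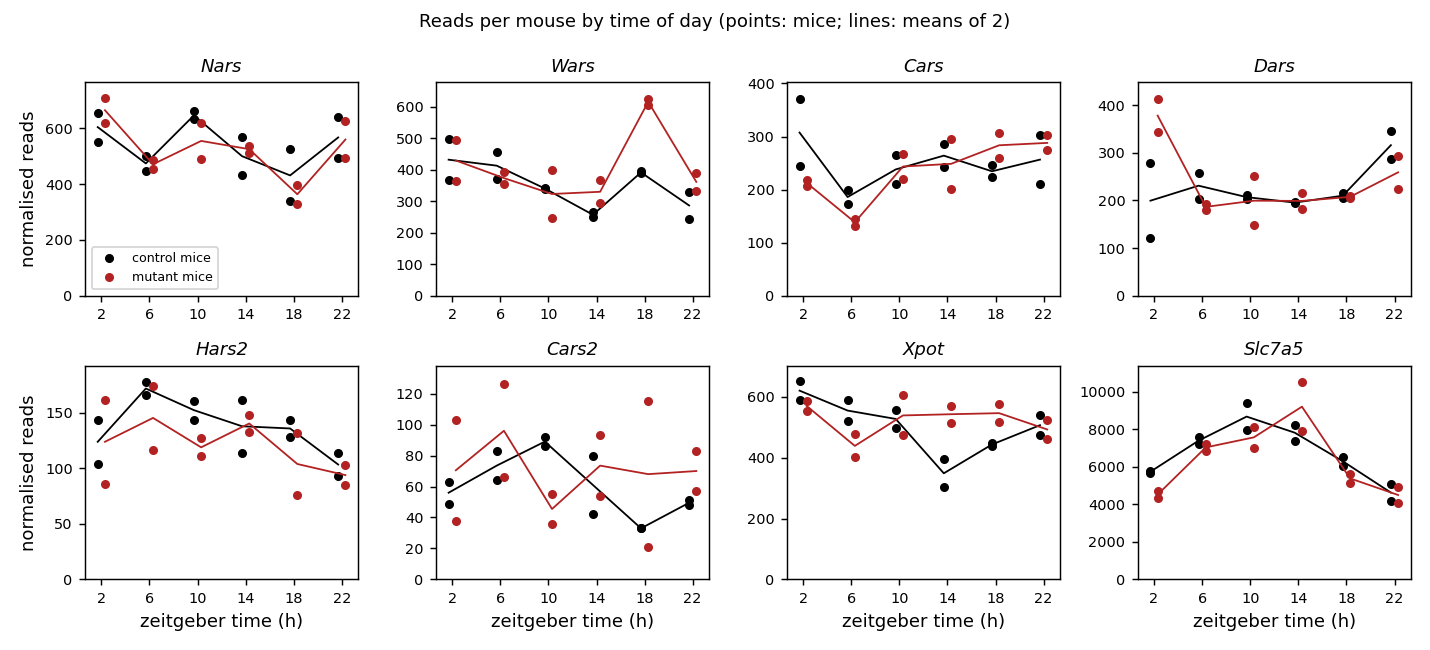
Normalised reads of 6 synthetase genes, the tRNA exporter Xpot and the transporter Slc7a5 in each mouse by zeitgeber time (h); black points are control mice, red points mutant mice, and lines join the means of the 2 mice at each time. Slc7a5 rises to control means of 8671 reads at ZT10 and has mutant means of up to 9198 at ZT14. Wars is highest in the 2 mutants at ZT18, at 627 and 606 reads.

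Whether the rhythm differed between genotypes was tested as the interaction of genotype with the cosine. None of the 36 genes passed at an adjusted p under 0.05, and none of all 15493 genes did (0.0%). At an unadjusted p under 0.05 edgeR again listed none of the 36, against 4.26% of all genes, and the lowest p among them was 0.0652, for Pars2. DESeq2 also called none of the 36.

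The 8 libraries of ZT6 and ZT18 were then set against the other 16, in a fit with genotype and the 24-h cosine. Of all genes, 17.5% differed at an adjusted p under 0.05 (2708 genes, and 798 or 5.15% with the i5 index as a factor), and of the synthetase genes 2 of 36 did, both cytosolic: Nars was lower and Wars higher. The median log2 difference was 0.07 over the cytosolic genes, -0.09 over the mitochondrial genes and 0.00 over all genes.

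Nars read 447 and 501 in controls and 488 and 454 in mutants at ZT6, and 338 and 524 in controls and 398 and 329 in mutants at ZT18. In the other 16 mice it ran from 431 to 709. The groups overlapped, 3 of the ZT18 values lay below all of the other 16, and the log2 difference was -0.41 (SE 0.10, edgeR adjusted p = 0.00226). It was -0.48 to -0.36 over the alternatives run, with adjusted p-values from 0.000253 to 0.132, the highest with the i5 index as a factor.

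Wars read 371 and 456 in controls and 354 and 394 in mutants at ZT6, 389 and 395 in controls at ZT18, and 627 and 606 in mutants at ZT18. In the other 16 mice it ran from 245 to 498, so that only the 2 mutants at ZT18 stood above all of them. The log2 difference was 0.38 (SE 0.12, edgeR adjusted p = 0.0280). Without the mutant ZT18 mice 1 or 2 it was 0.32 (adjusted p = 0.0844) or 0.33 (adjusted p = 0.0840), without control ZT6 mouse 2 it was 0.36 (adjusted p = 0.0693), and with the i5 index as a factor it was 0.01 (adjusted p = 0.988). Over all alternatives the adjusted p ran from 0.00825 to 0.988. In the same libraries 7 of 10 endothelial markers were higher, and 8 of 8 microglial, 5 of 6 astrocyte, 5 of 6 oligodendrocyte and 6 of 6 neuronal markers were lower at an adjusted p under 0.05 (edgeR). Pericyte and smooth muscle markers were higher in 7 of 8 cases and genes of the response to cell isolation in 5 of 9, and red blood cell markers were lower in 5 of 5, with summed levels that overlapped between the libraries for these 3 lists. Their part in the differences of Nars and Wars was not tested.

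Of 18 genes that work beside the synthetases, all passed the filter. None differed between genotypes or was rhythmic over both genotypes at an adjusted p under 0.05 (edgeR). At an unadjusted p under 0.05 there were 4 for genotype (6.95% of all genes), 0 for rhythm over both genotypes (5.18%) and 2 for the rhythm difference, Aimp1 and Xpot (4.26%). Xpot, the exporter of transfer RNA from the nucleus, passed meta2d in controls (q = 0.595), close to the threshold, and the call was lost without either control of ZT2, when no gene passed. Its control mean went from 620 reads (ZT2) over 554.5 (ZT6) and 527 (ZT10) to 348.5 (ZT14), with 443 (ZT18) and 506.5 (ZT22) after that, and its mutant means lay between 438.5 and 569.5. The q in mutants was 1.0, and the test of the difference in rhythm did not pass (edgeR adjusted p = 1.00).

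Aimp1, a scaffold of the multi-synthetase complex, ranged from 140 to 325 reads in controls (median 214.5) and from 115 to 216 in mutants (median 181.5). Its log2 fold change was -0.34 (SE 0.15, edgeR adjusted p = 0.638) and its rhythm difference did not pass either (edgeR adjusted p = 1.00). The other 2 scaffolds were scarce, with Aimp2 at 37.9 ± 14.7 reads in controls and 28.5 ± 15.3 in mutants, and Eef1e1 at 27.2 ± 17.6 and 14.8 ± 11.2. Their log2 fold changes were -0.41 and -0.90 (edgeR adjusted p = 0.864 and 0.840).

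Of 30 amino acid response genes, 27 passed the filter, none differed between genotypes at an adjusted p under 0.05 (0.271% of all genes) or an unadjusted one (6.95%, edgeR), and 1 was rhythmic over both genotypes (0.503%). That gene was Slc7a5, the large neutral amino acid transporter of the barrier, with an amplitude of 0.49 and a peak at ZT11.2 (edgeR adjusted p = 2.72e-05). By meta2d it passed in controls (q = 0.153) and not in mutants (q = 0.762, unadjusted p = 0.00231), with relative amplitudes of 28.1% and 35.4%. The control call was lost without either control of ZT2, and the test of the difference in rhythm did not pass (edgeR adjusted p = 1.00). The study reported this transporter as rhythmic in mutants as well. Its partner Slc3a2 had an amplitude of 0.22 with a peak at ZT12.8 (adjusted p = 0.150). At an unadjusted p under 0.05, 3 of the 27 were rhythmic over both genotypes (edgeR, 5.18% of all genes). By meta2d there were 2 in controls (2.43%) and 4 in mutants (2.27%). Atf4 had 1232 ± 357 reads in controls and 1296 ± 357 in mutants, with an amplitude of 0.11 (edgeR adjusted p = 1.00). Asns, the asparagine synthetase that is no tRNA enzyme, had 33.0 ± 20.3 and 29.5 ± 14.7 reads.

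Between the ZT6 and ZT18 libraries and the others, 9 of the 27 differed at an adjusted p under 0.05, against 17.5% of all genes. Atf4 (log2 difference 0.53), Trib3 (1.01), Ddit4 (0.70), Slc38a2 (0.39) and Slc7a1 (0.27) were higher, and Phgdh (-2.19), Vldlr (-1.93), Psat1 (-1.65) and Slc7a11 (-1.06) were lower. Phgdh and Psat1 are enzymes of serine synthesis that astrocytes are known to express highly, and astrocyte markers were lower in the same libraries, at 4544 to 7507 summed reads against 10380 to 20670. Of the genes of the response to cell isolation, 5 of 9 were higher there, at 48390 to 63520 summed reads against 17210 to 69400. Their part in these differences was not tested. The only synthetase genes called at an adjusted p under 0.05 in the edgeR tests were Nars and Wars, for the ZT6 and ZT18 libraries. Neither promoter was searched, so that these calls cannot be compared with the amino acid response elements.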

How the data were processed

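RNA-seq of 24 libraries was analysed. Reads had been aligned by the authors with STAR 2.5.3a (build GRCm38). They handled alignments with SAMtools 1.3.1 (per the submitters' processing notes), and deposited gene counts that PORT had normalised to similar totals, as whole numbers; depth before that step is not in them, and intervals reflect normalised reads. Libraries were pooled over 3 lanes. The members, gene lists and tests were chosen with earlier results of these data known. Groups came from the labels. A gene was tested if 6 or more mice of a genotype held at least 5 reads. The tests used edgeR 4.0.16 (R 4.3.3; TMM, quasi-likelihood, Benjamini-Hochberg adjustment over 15493 genes). Fits had time point as a factor (genotype), a 24-h cosine and sine (rhythm, 2 degrees of freedom), their interaction with genotype, or the ZT6 and ZT18 libraries as a factor. The meta2d steps were coded anew (Python 3.11.15, pandas 2.3.3, SciPy 1.17.1, NumPy 2.4.6). The main edgeR fits and the meta2d steps were tested on simulated counts. These were less dispersed than the data, for which edgeR gave common dispersions of 0.179 to 0.264. DESeq2 1.42.0 was an alternative. Upper limits of amplitudes take the cosine and sine as equally precise. Exon lengths were taken from GENCODE models on GRCm38 for 53360 genes of the table. Pair ratios used a pseudocount of 0.5 reads. Given with values are members called in any test and those with an unadjusted p under 0.05 for genotype, rhythm or rhythm difference. So are the 3 highest and 3 lowest of each class per exon length and the amino acid pairs. Other genes given with values are Xpot, Aimp1, Aimp2, Eef1e1, Slc7a5, Slc3a2, Atf4, Asns and amino acid response genes with an adjusted call. Clock genes, apart from Arntl, and cell markers are given as counts or summed reads. Farsb, Tars, Pars2 and the 95% intervals of Gars and Wars were added after their values were seen. Plots were drawn with matplotlib 3.10.9. Alternatives were other normalisations, filters, tests and thresholds, a replicate block, the i5 index, and each mouse left out. Some promoter sequence is not reported here.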

Additional observations from a re-analysis of the deposited data

How the results depend on the processing

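The counts of synthetase genes called were 0 for genotype, for rhythm in controls, in mutants and over both genotypes and for the rhythm difference under each alternative with an adjusted threshold, including each mouse left out. At an unadjusted p under 0.05 they were 3 for genotype, 3 for rhythm over both genotypes and 1 in controls, and 0 in mutants and for the rhythm difference. For the ZT6 and ZT18 libraries the count of 2 became 1 with 10 reads required in every mouse, 0 with the i5 index as a factor and 5 at an unadjusted p under 0.05. All genes called in that test were 2708 (17.5%), against 1734 of 9863 (17.6%) with 10 reads required and 798 (5.15%) with the i5 index. With each mouse left out the count of synthetase genes ran from 1 to 3, the lowest without control ZT6 replicate 2 or mutant ZT18 replicate 2. The i5 index was the same in all ZT6 and ZT18 libraries, so that it overlaps them in part. At ZT2 and ZT10 it also separated controls from mutants, so that genotype differences fitted with it rest on the other time points. None of Qars, Yars, Mars, Nars and Wars changed direction under the alternatives run. The labels do not say that replicate numbers mark a shared litter or day, and mice with the same number did not deviate together (correlations from -0.01 to 0.01). With a replicate block the counts of calls were 0 in each test, and 2 for the ZT6 and ZT18 libraries. Adding the library series to the rhythm fits, chosen after seeing the data, also gave 0. All genes called by meta2d numbered 48 in controls and 6 in mutants. In controls they were 0 to 82 with each mouse left out, 19 without the filter and 65 with values rescaled by TMM. At an adjusted p under 0.6, the meta2d threshold, an edgeR cosinor called 133 in controls, and 316 without the ZT6 and ZT18 libraries. In mutants the meta2d calls were 0 to 24 with each mouse left out, 1 without the filter and 24 with values rescaled by TMM. With 10 reads required in every mouse they were 43 in mutants. At an adjusted p under 0.6 the cosinor called 30 in mutants, and 301 without the ZT6 and ZT18 libraries. All genes called for the rhythm difference numbered 52 without a filter on low counts, 5 without the ZT6 and ZT18 libraries, and 0 in the fit reported. For genotype they numbered 42, against 141 without the filter, 99 with DESeq2, 28 without those libraries, 7 with the i5 index and 25 to 68 with each mouse left out. For rhythm over both genotypes they numbered 78, against 231 without the filter, 52 without TMM, 125 with DESeq2 and 52 to 90 with each mouse left out. No scaling moved the median of all genes by more than 0.1 (log2). With 2 mice per time point and genotype, and normalised reads near 15 for Ears2, the 95% interval of its genotype difference reached from -2.10 to 0.44 (log2), the widest of the 36 genes.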
